A study of Mus musculus with 4 samples.

Results

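The clock output factors are 8 genes taken by symbol from the 52022 annotated genes with a transcript in the data: the activators Dbp, Tef and Hlf, the repressors Nfil3, Ciart, Bhlhe40 and Bhlhe41, and the receptor gene Rora. RNA-seq libraries from brown fat of male mice, fed ad libitum and kept for 12 weeks on a diet with 60% fat, were compared: 2 libraries of mice whose thermogenic adipocytes lack ATF4 (KO) and 2 of wild-type mice (WT). In the labels the library names of WT 2 and KO 1 begin with S1 and those of WT 1 and KO 2 with S2, so each prefix holds 1 library of each genotype. The sources used here do not say what the prefix stands for, at which hour the tissue was collected, how old the mice were, which allele or Cre line deleted Atf4, or whether a library is 1 animal. The set was chosen by symbol and by the measured differences between the prefixes, which were already known. Levels by prefix are therefore a description without a test, and the tests concern genotype.

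In most mammalian cells CLOCK and BMAL1 (encoded by Arntl) activate genes through E-box sequences, and the PER and CRY proteins they induce shut them off again, once a day. DBP, TEF and HLF are PAR-bZIP transcription factors that pass this rhythm on by activating genes with a D-box, and NFIL3 (E4BP4) represses through the same D-box. BHLHE40 and BHLHE41 (DEC1 and DEC2) repress by binding E-boxes, Ciart encodes the BMAL1-binding repressor CHRONO, and ROR receptors activate Arntl and Nfil3 through ROR elements where the REV-ERB receptors (Nr1d1, Nr1d2) repress. Dbp and the REV-ERB genes are thus known to peak at an opposite time of day from Arntl and Nfil3, and brown fat is one of the tissues with such a rhythm.

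The total estimated counts were 25985367 to 34813870 per library, and S1 and S2 overlapped in depth. All 8 genes passed the filter on low counts, with 85 to 7662 counts per library. Ucp1, which defines the brown adipocyte, was at 5563 to 7024 CPM (counts scaled to a library total of 1e+06 after TMM). Atf4 was at 107 CPM in WT 2, 29.2 in the library labelled WT 1, 24.97 in KO 1 and 24.5 in KO 2, so it sets the library labelled WT 1 only slightly above KO. Skeletal muscle markers held 1.82 CPM in sum in each WT library and 2974 and 2759 CPM in KO 1 and KO 2. Muscle also expresses clock genes, and the part of muscle RNA in the genotype comparisons was not tested.

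The promoters show which of the 8 genes carry a canonical E-box near a RefSeq start site. RefSeq (GRCm38.p6) gave 8 promoters of 300 bases (250 before and 50 after the start) for 7 of the genes. Tef had 2 promoters, and Bhlhe40 had no entry. The motif CACGTG, the same on both strands, was present in 4 of the 8, those of Ciart, Bhlhe41 and both of Tef, against 7.15% of 32851 promoters of this length. Ciart held 3 copies, starting 116, 58 and 44 bases before its start site, and the others held 1 each. In GENCODE the upstream Tef window (chr15:81802423-81802722) lies inside the transcript Tef-202, which begins at 81802421, and it is not printed. The other 3 sequences follow 5′ to 3′ on the strand of the gene, with E-boxes in capitals.
Ciart promoter, chr3:95882179-95882478, minus strand: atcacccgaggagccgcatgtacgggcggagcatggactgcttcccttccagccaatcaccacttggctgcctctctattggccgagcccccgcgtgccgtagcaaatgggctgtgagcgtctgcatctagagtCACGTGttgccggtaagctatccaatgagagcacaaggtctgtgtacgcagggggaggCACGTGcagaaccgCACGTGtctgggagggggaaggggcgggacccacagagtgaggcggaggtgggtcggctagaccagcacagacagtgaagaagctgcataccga
Tef downstream promoter, chr15:81811164-81811463, plus strand: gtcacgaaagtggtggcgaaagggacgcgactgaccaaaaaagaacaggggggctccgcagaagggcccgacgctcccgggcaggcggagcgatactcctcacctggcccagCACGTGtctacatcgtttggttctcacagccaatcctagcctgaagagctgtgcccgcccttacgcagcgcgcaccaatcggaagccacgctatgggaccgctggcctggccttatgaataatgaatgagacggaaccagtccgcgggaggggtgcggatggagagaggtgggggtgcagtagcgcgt
Bhlhe41 promoter, chr6:145865371-145865670, minus strand: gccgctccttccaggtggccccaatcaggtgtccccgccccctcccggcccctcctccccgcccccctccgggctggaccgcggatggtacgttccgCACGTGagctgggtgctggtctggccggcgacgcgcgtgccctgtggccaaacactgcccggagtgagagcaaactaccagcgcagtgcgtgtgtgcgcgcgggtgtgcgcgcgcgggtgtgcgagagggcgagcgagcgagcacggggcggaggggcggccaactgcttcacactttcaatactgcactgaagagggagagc
In the Hlf promoter (chr11:90390868-90391167, minus strand) a cyclic AMP element, TGACGTCA, began 9 bases before the start, and 1.79% of all promoters hold one. The promoters of Dbp, Nfil3 and Rora held none of the motifs searched. In GENCODE, Dbp-201 begins at 45705088, upstream of the RefSeq start site of the Dbp window (45705247). Bhlhe41-201 begins at 145865558, upstream of the RefSeq site of its window (145865420). The same holds for Nfil3-201, which begins at 52981073 (RefSeq site 52981039), and for Ciart-204, which begins at 95882251 (RefSeq site 95882228). Part of the bases before the start site in these windows thus lies inside a transcript. Neither the D-box forms TTATGTAA (read on both strands) and TTACGTAA nor the ROR elements AANT followed by AGGTCA or by GGGTCA (both strands) were in any of the 8 windows, and 0.938%, 0.119%, 0.219% and 0.216% of all promoters held them. No motifs overlapped. A match describes these letters only. GC content was 60.3% to 81.7% in the 8 windows, and the shares were not matched for it.

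The members separated the libraries by prefix rather than by genotype. In CPM, 7 of the 8 did not overlap between S1 and S2, against 53.2% of the 15643 genes tested. Of these, 6 were lower in S2 (25.9% of all genes) and Nfil3 was higher in S2 (27.3%). None of the 8 separated KO from WT, while 26.3% of all genes did. The mean difference between prefixes was larger than that between genotypes for each of the 8 genes, as for 64.7% of all genes. Each prefix holds both genotypes, so a gene whose prefixes do not overlap cannot separate KO from WT. Its mean prefix difference must also be the larger one. For the 7 genes both results thus follow from the separation by prefix, and they are no separate evidence about genotype.

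**Figure D1:**
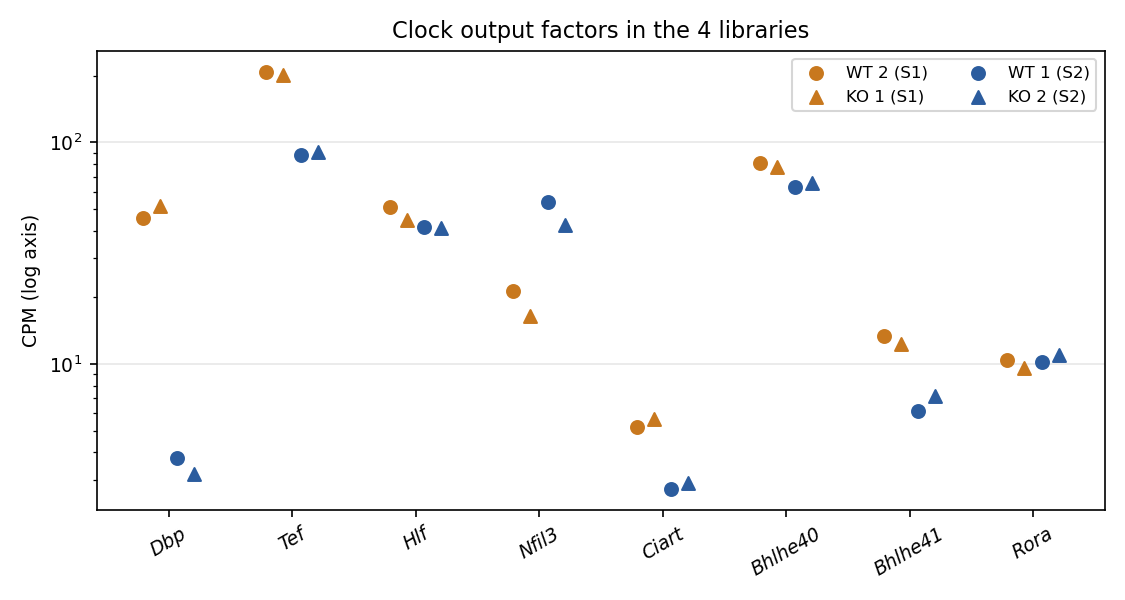
Level of each clock output factor in the 4 libraries, as CPM on a log axis, 1 point per library (circles WT, triangles KO, orange S1, blue S2). Dbp fell from 45.4 and 51.8 CPM in the S1 libraries to 3.76 and 3.19 in the S2 libraries, Nfil3 went the other way, and Rora overlapped.

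Dbp (ENSMUSG00000059824, chromosome 7, 45705088 to 45710203, plus strand) had the widest range. It was at 45.4 CPM in WT 2 and 51.8 in KO 1, against 3.76 in the library labelled WT 1 and 3.19 in KO 2. Both S1 libraries were far above both S2 libraries, and the genotypes lay close together within each prefix. The mean was 48.6 ± 4.52 CPM in S1 and 3.47 ± 0.404 in S2 (SD, n = 2 each), 12.1-fold higher in S1 among WT and 16.2-fold among KO. On the log2 scale the mean difference of -3.78 ranked 2 among all 15643 genes ordered from the lowest in S2. Genes at least 2 times higher in S1 than in S2 in both genotypes made up 1.11% of those tested, and Dbp and Tef were the 2 members among them.

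Tef (ENSMUSG00000022389, chromosome 15, 81802421 to 81826863, plus strand), the most abundant of the 8 by TPM (transcript abundance, a level per length) in both prefixes, moved in the same direction over a smaller range. It was at 209 CPM in WT 2 and 201 in KO 1, and at 88.1 in the library labelled WT 1 and 90.4 in KO 2. The 4 values form a high pair and a low pair, 205 ± 5.60 and 89.2 ± 1.62 CPM (SD, n = 2 each). This is 2.37-fold higher in S1 among WT and 2.22-fold among KO.

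Hlf (ENSMUSG00000003949, chromosome 11, 90336536 to 90390895, minus strand), the remaining PAR-bZIP gene, was nearly flat. It was at 51.3 CPM in WT 2, 44.5 in KO 1, 41.5 in the library labelled WT 1 and 41.1 in KO 2. The S2 libraries were below both S1 libraries by a small margin, 1.24-fold among WT and 1.08-fold among KO. On the TPM scale Hlf overlapped, at 10.1 and 7.16 in WT 2 and KO 1 and 8.30 and 7.82 in the library labelled WT 1 and KO 2. The PAR-bZIP genes thus differed among themselves in their range between the same libraries, from Dbp over Tef to Hlf.

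Nfil3 (ENSMUSG00000056749, chromosome 13, 52967209 to 52981073, minus strand), the D-box repressor, was the 1 member higher in S2. It was at 21.3 CPM in WT 2 and 16.4 in KO 1, and at 54.1 in the library labelled WT 1 and 42.2 in KO 2. Both S2 libraries were above both S1 libraries, 2.54-fold among WT and 2.57-fold among KO. Genes with S2 at 2 times S1 or more in both genotypes made up 0.735% of those tested.

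Within each library the level of D-box activators relative to their repressor followed the prefix. The TPM of Dbp, Tef and Hlf summed to 118 in WT 2 and 100.4 in KO 1, against 12.1 and 7.78 for Nfil3. In the library labelled WT 1 and in KO 2 the activators summed to 36.7 and 40.1 TPM and Nfil3 was at 28.4 and 22.7. The ratio of activator to repressor messages was therefore 9.81 and 12.9 in S1 and 1.29 and 1.76 in S2. Dbp made up 34.1% and 38.1% of the activator TPM in S1 and 9.74% and 8.09% in S2, while the share of Hlf went from 8.54% and 7.13% to 22.6% and 19.5%. These are messenger levels, and protein was not measured.

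**Figure D2:**
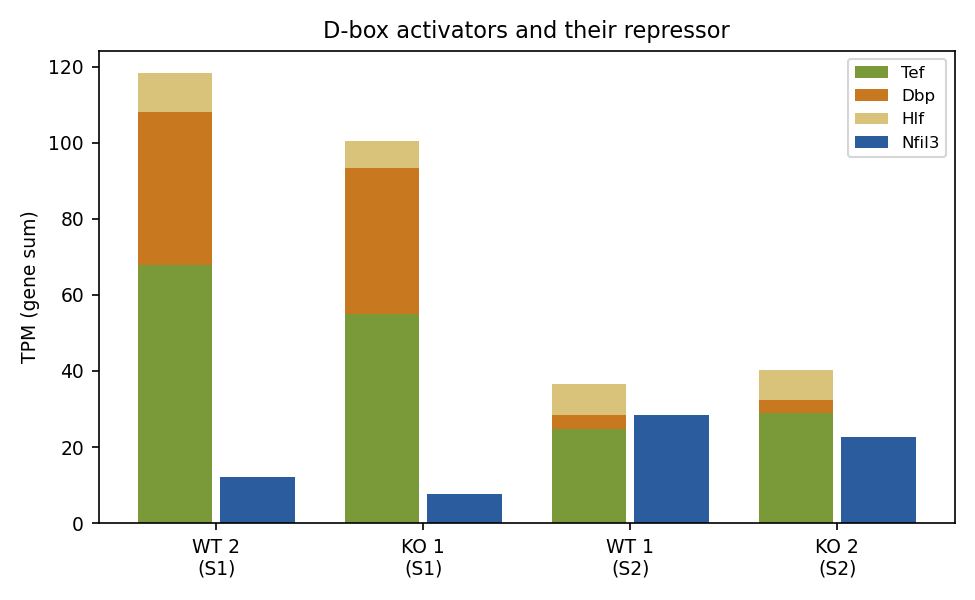
TPM of the D-box activators Tef, Dbp and Hlf (stacked bars) and of the repressor Nfil3 (blue bars) in each library, with the prefix in brackets. The stacked bars reach 118 and 100.4 TPM in S1 and 36.7 and 40.1 in S2, where the Nfil3 bars are taller than in S1.

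The E-box repressors and Ciart were lower in S2. Ciart (ENSMUSG00000038550, chromosome 3, 95878503 to 95882251, minus strand) was at 5.20 CPM in WT 2 and 5.67 in KO 1 against 2.74 in the library labelled WT 1 and 2.91 in KO 2. The S1 pair was above the S2 pair, 1.90-fold among WT and 1.94-fold among KO. Bhlhe41 (ENSMUSG00000030256, chromosome 6, 145858243 to 145865558, minus strand) was at 13.4 and 12.3 CPM in WT 2 and KO 1 and at 6.15 and 7.20 in the library labelled WT 1 and KO 2. It too formed 2 pairs, 2.19-fold apart among WT and 1.72-fold among KO. Its relative Bhlhe40 (ENSMUSG00000030103, chromosome 6, 108660629 to 108666925, plus strand) was at 80.3 and 77.1 CPM in S1 and 62.9 and 65.6 in S2, 1.28-fold apart among WT and 1.18-fold among KO. In TPM the S1 and S2 values of Bhlhe40 overlapped (29.9 and 24.9 against 22.7 and 25.2). Per length, Bhlhe40 messages outnumbered those of Bhlhe41 8.13 and 11.6 times in S1 and 16.1 and 13.2 times in S2.

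Rora (ENSMUSG00000032238, chromosome 9, 68653786 to 69388246, plus strand) was the member without a separation. It was at 10.5 CPM in WT 2, 9.61 in KO 1, 10.2 in the library labelled WT 1 and 10.9 in KO 2, a mean difference of 0.08 on the log2 scale. The S1 and S2 values overlapped, and so did those of the genotypes.

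By mean TPM the order in S1 was Tef (61.4 ± 9.08), Dbp (39.3 ± 1.44), Bhlhe40 (27.4 ± 3.53), Nfil3 (9.92 ± 3.02), Hlf (8.63 ± 2.08), Ciart (4.95 ± 0.142), Bhlhe41 (2.91 ± 1.08) and Rora (1.68 ± 0.264; SD, n = 2 each). Nfil3 and Hlf did not differ there beyond their spread, and neither did Bhlhe41 and Rora. In S2 the order was Tef (26.9 ± 3.03), Nfil3 (25.6 ± 4.03), Bhlhe40 (24.0 ± 1.74), Hlf (8.06 ± 0.339), Dbp (3.41 ± 0.228), Ciart (2.64 ± 0.645), Bhlhe41 (1.66 ± 0.354) and Rora (1.51 ± 0.0845). The ranges of mean ± SD overlapped for the first 3 of these, for Dbp and Ciart, and for Bhlhe41 and Rora. Dbp went from place 2 to place 5 and Nfil3 from place 4 to place 2.

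The deposited values are per transcript, and those of Dbp and Tef showed which forms followed the prefix. Reads shared between forms are split by estimation, so single forms are less certain than gene sums. The 3 protein-coding Dbp transcripts summed to 34.7 and 26.8 TPM in WT 2 and KO 1 and to 2.49 and 1.95 in the library labelled WT 1 and KO 2. The 2 Dbp transcripts annotated with a retained intron summed to 5.59 and 11.5 TPM in S1 and 1.08 and 1.30 in S2. The fold between prefixes was thus 13.9 and 13.8 (WT and KO) for the coding forms and 5.18 and 8.80 for the intron-retaining sum. The 2 forms in that sum differed: Dbp-205 was at 3.20 and 6.39 TPM in S1 and 0.133 and 0.0444 in S2, a fold of 24.1 among WT, and Dbp-202 was at 2.39 and 5.08 against 0.945 and 1.26, with folds of 2.52 and 4.04. For Tef the folds of the sums were 2.40 and 1.81 for the coding forms and 4.12 and 4.38 for the retained-intron forms, which were at 17.5 and 14.98 TPM in S1 and 4.26 and 3.42 in S2.

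The 2 most abundant forms of Tef start at different sites and differed from each other in KO 1. Tef-202, which starts upstream, was at 30.9 TPM in WT 2, 31.6 in KO 1, 12.8 in the library labelled WT 1 and 13.4 in KO 2. Its S1 values were 2.42 times S2 among WT and 2.36 times among KO. Tef-201, which starts at the RefSeq site of the downstream promoter printed above (81811414), was at 16.7, 6.82, 6.84 and 7.56 TPM in the same order. Only WT 2 stood out for this form, and KO 1 was level with the S2 libraries. With 1 library a cell this has no replicate check. Nfil3 has a single transcript in the data, and the longest form, Hlf-201, held 79.6% to 98.8% of Hlf.

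**Figure D3:**
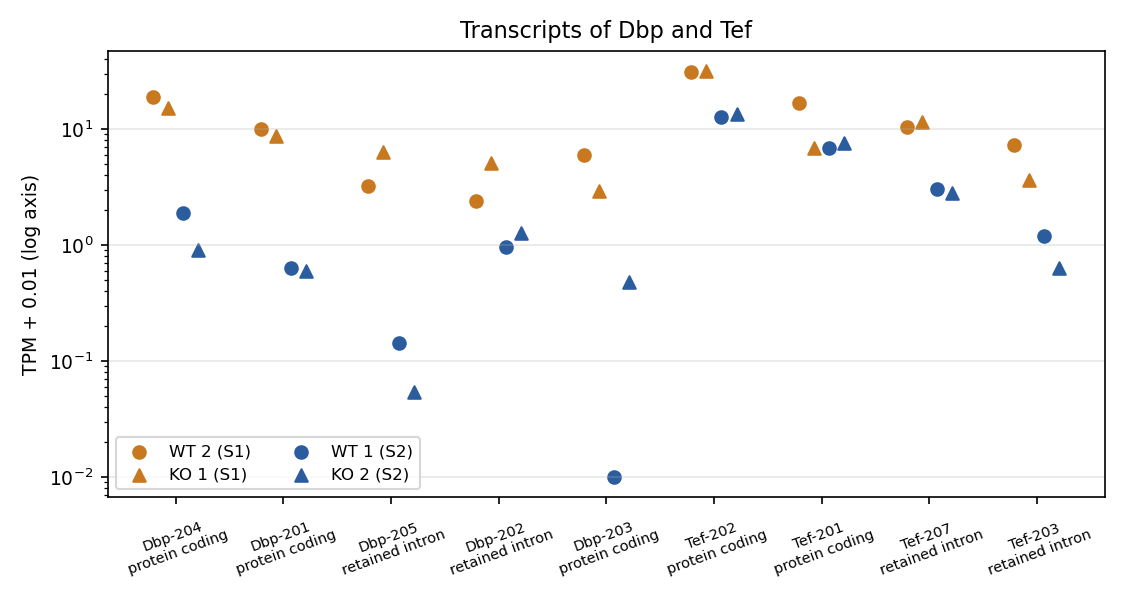
TPM of the Dbp and Tef transcripts with a mean of at least 1.5 TPM, plotted as TPM + 0.01 on a log axis, 1 point per library (circles WT, triangles KO, orange S1, blue S2). Orange points lie above blue ones for each form shown except Tef-201, where KO 1 (6.82 TPM) is level with the S2 libraries.

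No difference between KO and WT passed the edgeR quasi-likelihood test in these genes. Of the 8, 0 passed at an adjusted p under 0.05 and 0 had an unadjusted p under 0.05, against 0.78% and 4.02% of all genes. At such low shares 0 of 8 genes is not unusual. This fit used genotype alone, so the difference between prefixes counted as error. The members were chosen with that difference known, which left this fit little room to call them. DESeq2, limma-voom and limma on TPM also called 0. The targeted gene Atf4 did not pass the edgeR test with genotype alone either (log2 fold change -1.46, SE 0.57, adjusted p = 0.9998). With the prefix as a block 0 of 8 passed, against 2.05% of all genes, and 1, Nfil3, had an unadjusted p under 0.05, as did 8.88% of all genes. The block leaves 1 residual degree of freedom, so its errors rest largely on variation pooled across genes. The median log2 fold change of the 8 was -0.01 without and 0.00 with the block, and it was 0.00 in both over all genes tested.

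For the activators the genotypes were close within each prefix. The log2 fold change of Dbp, KO over WT, was 0.16 (SE 1.40, edgeR adjusted p = 0.9998) without the block and 0.02 (SE 0.17, adjusted p = 0.9997) with it. Within S1, KO 1 was 0.19 above WT 2 on the log2 scale, and within S2, KO 2 was 0.23 below the library labelled WT 1 (a difference of -0.23). Tef had -0.03 (SE 0.52) without and -0.01 (SE 0.15) with the block, and Hlf -0.12 (SE 0.19) and -0.11 (SE 0.15).

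Nfil3 was the member with the largest difference between the genotypes. It was lower in KO within both prefixes, with log2 differences of -0.37 in S1 and -0.36 in S2, as 26.5% of all genes were lower within both. The log2 fold change was -0.36 (SE 0.58, edgeR adjusted p = 0.9998) without the block and -0.37 (SE 0.15, adjusted p = 0.469, unadjusted p = 0.0335) with it, so it did not pass in either fit. Nfil3 can also be induced by stimuli outside the clock. Of 12 immediate early genes, which respond to stimuli within minutes, 0 passed without the block, against 0.78% of all genes. With it 8 of the 12 fell in KO, against 74 of all 15643 genes tested. The median log2 fold change over the 12 was -1.44 with the block. Their part in the values of Nfil3 was not tested.

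The repressors and Rora showed smaller values. With the prefix as a block the log2 fold change was 0.11 (SE 0.25) for Ciart, 0.04 (SE 0.18) for Bhlhe41, 0.00 (SE 0.15) for Bhlhe40 and -0.01 (SE 0.17) for Rora, with adjusted p between 0.997 and 0.9997 in edgeR. A p that misses the threshold does not show that the genotypes are alike. For 5 of the 8 the sign of KO minus WT differed between the prefixes, as for 48% of all genes. Whether the genotype difference depends on the prefix could not be tested, as 1 library of each kind leaves no residual degree of freedom.

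**Figure D4:**
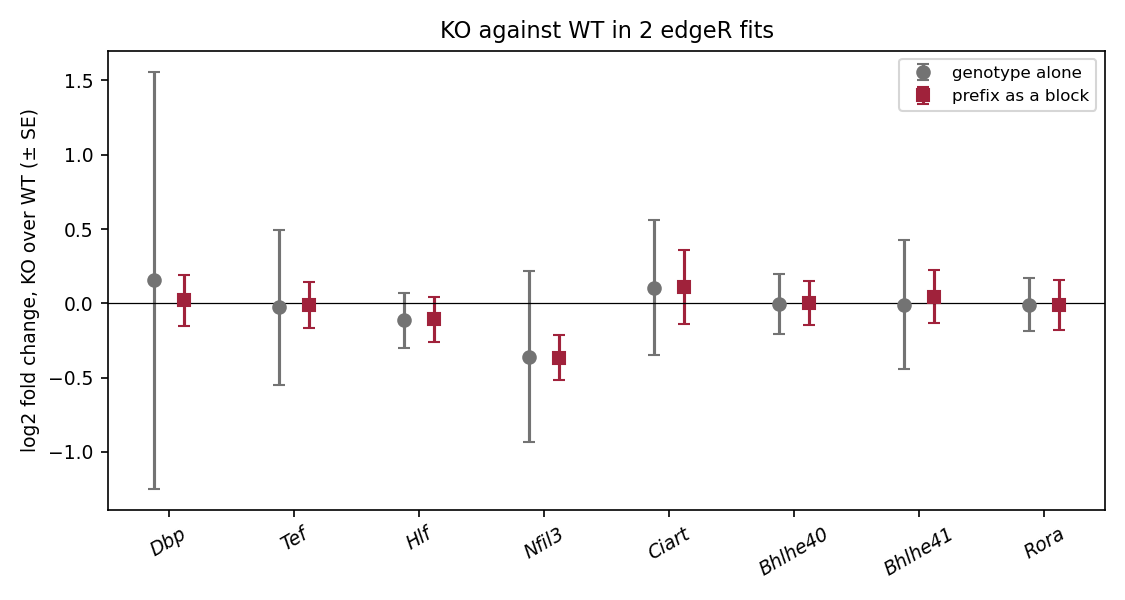
Log2 fold change of KO over WT with its SE for each gene, from edgeR with genotype alone (grey circles) and with the prefix as a block (red squares), n = 2 libraries per genotype. The SE of Dbp shrinks from 1.40 to 0.17 with the block, and Nfil3 lies lowest at -0.37.

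The core clock genes, from a list of 14, put the members in context, again as a description by prefix. Of the 14, 6 were higher and 4 lower in both S2 libraries, against 27.3% and 25.9% of all genes tested. Arntl, the BMAL1 gene, was at 3.35 and 3.48 CPM in WT 2 and KO 1 and at 21.2 and 23.3 in the library labelled WT 1 and KO 2, a mean difference of 2.68 on the log2 scale. Cry1, a late repressor of the loop, was at 6.996 and 4.85 CPM in S1 and 17.2 and 15.5 in S2, in the direction of Nfil3. Nr1d1, which encodes REV-ERBα, was at 135 and 145 CPM in S1 and 31.6 and 69.5 in S2, in the direction of Dbp. Per3, another repressor, was at 62.7 and 63.7 CPM in S1 and 21.6 and 15.6 in S2. Per1 overlapped by prefix (77.1 and 40.7 against 50.4 and 39.9 CPM) and Per2 did too (37.2 and 23.5 against 15.5 and 24.9). Between genotypes 0 of the 14 passed in edgeR with or without the block. The 1 with an unadjusted p under 0.05 without it was Per1, lower in both KO libraries (log2 fold change -0.66, SE 0.24, adjusted p = 0.9998, and 0.153 with the block). With the block Nr1d1 also had an unadjusted p under 0.05, in the other direction (log2 fold change 0.61, SE 0.22, edgeR adjusted p = 0.3615).

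**Figure D5:**
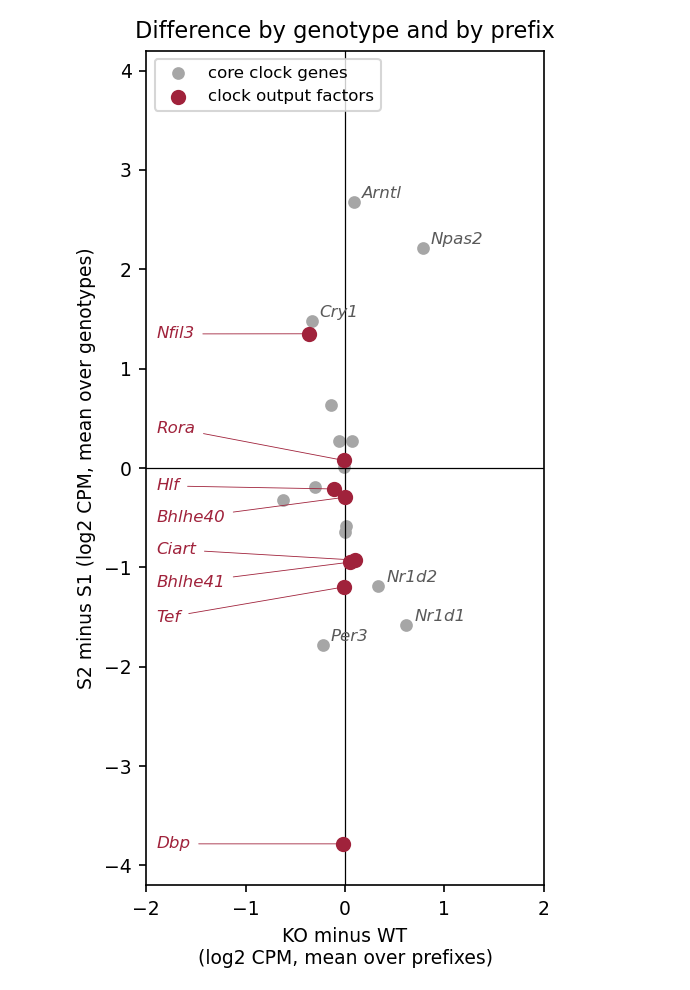
Mean difference in log2 CPM between KO and WT (horizontal axis) and between S2 and S1 (vertical axis, same scale) for the 8 clock output factors (red) and 14 core clock genes (grey, the widest ones named). On the vertical axis the points range from Dbp at -3.78 to Arntl at 2.68. The members stay within 0.37 of 0 on the horizontal one, while the core clock genes Npas2, Nr1d1 and Per1 lie further out.

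Genes downstream of the clock went in both directions. From a list of 12 genes reported as clock-controlled or linked to PAR-bZIP factors, 2 were higher and 5 lower in both S2 libraries. Of all genes tested, 27.3% were higher and 25.9% lower. Between genotypes 0 of the 12 passed in edgeR with or without the block. Ppara, the fatty acid receptor gene, was at 61.1 and 47.6 CPM in WT 2 and KO 1 and at 133 and 157 in the library labelled WT 1 and KO 2. Alas1, the first enzyme of haem synthesis, was at 290 and 222 CPM in S1 and 470 and 412 in S2. Klf10, a zinc finger repressor, was at 23.2 and 29.7 CPM in S1 and 18.2 and 16.4 in S2, and the deubiquitinase gene Usp2 at 20.2 and 19.7 against 13.6 and 14.2. Both Ppara and Alas1 thus went opposite to Dbp.

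The genes nearest to Dbp in pattern, by Euclidean distance between log2 CPM values centred on each gene's mean over the 4 libraries, were Cyp2e1 (distance 0.964), Alox12 (1.38), Olfr1396 (1.62) and Elovl3 (1.89), among 10928 candidates. Cyp2e1, a cytochrome P450, was at 15.3 and 23.1 CPM in WT 2 and KO 1 and at 3.19 and 1.58 in the library labelled WT 1 and KO 2. Elovl3, a fatty acid elongase of brown fat, was at 61.1 and 81.5 CPM in S1 and 10.5 and 23.3 in S2. The nearest to Nfil3 were H2-Eb1 (0.0959), Ighm (0.188), H2-Ab1 (0.213) and Retnla (0.221), all of them known from immune cells. H2-Eb1, a class II antigen presentation gene, was at 34.7 and 25.0 CPM in S1 and 81.3 and 67.5 in S2. A likeness over 4 libraries is a loose one.

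Markers of other cell types separated by prefix in some lists and not in others. Over all genes tested 53.2% separated the prefixes, 27.3% higher and 25.9% lower in both S2 libraries. Of 8 macrophage markers 5 were higher in both S2 libraries, and the list summed to 259 and 99.96 CPM in WT 2 and KO 1 and to 378 and 303 in the library labelled WT 1 and KO 2. Of 6 endothelial markers 6 were lower in both S2 libraries, with sums of 921 and 1184 CPM in S1 and 627 and 699 in S2. Of 8 lymphocyte markers 3 of the 5 tested were lower in S2, with sums of 3.92 and 7.503 CPM in S1 and 2.42 and 2.19 in S2. Of the white adipocyte markers 1 of 6 tested, and of the fibroblast markers 0 of 6, separated the prefixes. Of the 10 brown adipocyte markers 2 (Ppargc1a and Adrb3) were higher and 3 (Ucp1, Cidea and Elovl3) lower in both S2 libraries. The list, most of it Ucp1, summed to 8670 and 9535 CPM in S1 and 7884 and 8304 in S2. In bulk tissue fewer cells of a type and less RNA per cell cannot be told apart, and the part of cell composition in the values of the 8 genes was not tested. The prefix and whatever it stands for cannot be told apart in these libraries.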

How the data were processed

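Poly(A) RNA-seq of brown adipose tissue was analysed in 4 libraries, grouped by the genotype in their titles. Per the submitters' processing notes, the authors used kallisto 0.45.0 and mm10. The sources do not name the transcript index, the strand option or any trimming. The authors deposited, per the file headers, an estimated count and a TPM value for each of 141450 transcripts. Transcripts were matched to GENCODE vM21 (GRCm38) by Ensembl identifier, which placed 138191 (97.7%). The others held 0.992 to 1.04% of counts and were left out. Gene sums of the estimated counts were rounded to whole numbers, and the deposited TPM were also added up by gene. The test was edgeR 4.0.16 (R 4.3.3) with TMM scaling, genotype as the term, filterByExpr (minimum count 10, minimum total 15) and Benjamini-Hochberg adjustment over 15643 genes. SEs come from the fold change and its F statistic. Log2 CPM used a prior count of 2. On simulated data the test with genotype alone recovered 20.4% of 2-fold and 87.2% of 4-fold changes, so it misses most 2-fold changes.

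The members and lists were chosen with earlier results of these data known. One gene of the core clock list is not reported here. Genes beyond the 8 were named by a rule: any core clock gene, up to 4 clock-controlled genes with the largest prefix difference among those with a mean log2 CPM of at least 1, and the 4 genes nearest to Dbp and to Nfil3 with the same minimum. Atf4 was named as the target. Ucp1 was named as the tissue's marker and 4 further brown adipocyte markers because they separated the prefixes, after their values were seen. The immediate early genes are given as counts. Per the labels nothing shows that libraries are separate animals, and p-values then reflect the spread between libraries, which may be technical. Same-prefix libraries deviated together from their genotype means (correlation 0.382 over 15643 genes). With 2 libraries per genotype, pairing by replicate number must give the same value with the sign reversed (-0.382), so it is no separate check. As alternatives, the replicate number or the prefix entered as a block, each library or the mitochondrial genes were left out, scaling used the size factors of DESeq2, genes were unfiltered or needed 1 CPM in 2 libraries, the prior count was 0.5, and the tests were DESeq2 1.42.0, limma-voom and limma 3.58.1 on log2(TPM + 1). Promoters are those of RefSeq, GRCm38.p6.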

Additional observations from a re-analysis of the deposited data

Results flagged for a closer look

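For 5 of the 8 genes the difference between KO and WT had opposite signs in the prefixes, as for 48% of all genes tested. This difference between the prefixes was not tested, since each holds 1 library of each genotype. On the log2 CPM scale KO minus WT was 0.19 in S1 and -0.23 in S2 for Dbp, -0.0558 and 0.0370 for Tef, -0.0585 and 0.0608 for Bhlhe40, -0.12 and 0.23 for Bhlhe41, and -0.12 and 0.0958 for Rora.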

How the results depend on the processing

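No member passed between genotypes under any of the 13 alternatives, and the number whose prefixes did not overlap ranged from 5, with TPM, to 8, where leaving out the library labelled WT 1 or WT 2 left single libraries to compare. Fold changes near 0 changed sign with the setting. With the replicate block, where each pair holds both prefixes, log2 fold changes were -0.0045 for Dbp, 0.0010 for Bhlhe40 and 0.0466 for Bhlhe41, 0 members passed and 164 genes were called, against 122 without it. The crossed pairing is the prefix block, with 320 calls, and there Bhlhe40 was at 0.0010 and Bhlhe41 at 0.0433. In limma-voom the values were -0.12 for Dbp, 0.0088 for Tef, 0.0051 for Bhlhe40 and 0.0178 for Bhlhe41, and Dbp was at -0.0894 in limma on TPM. Leaving out a library makes the genotypes unequal in prefix and gave ranges of -2.95 to 2.87 for Dbp, -0.72 to 0.72 for Tef, -0.26 to 0.05 for Hlf, -1.20 to 0.46 for Nfil3, -0.45 to 0.64 for Ciart, -0.17 to 0.18 for Bhlhe40, -0.46 to 0.67 for Bhlhe41 and -0.11 to 0.0804 for Rora, with adjusted p no lower than 0.161 for any member. The S2 minus S1 difference of Rora was -0.0901 on log2(TPM + 1), and that of Hlf was -0.07 there and -0.11 without WT 2, against -0.21. On log2(TPM + 1) it was also smaller for Bhlhe41 (-0.53 against -0.95) and Bhlhe40 (-0.18 against -0.29). The same held there for Dbp (-3.19 against -3.78), Ciart (-0.72 against -0.93) and Tef (-1.16 against -1.20). The 26873 genes tested without a filter gave 457 calls and DESeq2 gave 210.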

Other observations

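The libraries of S2 were alike in Dbp and Arntl but not in every clock gene. Nr1d1 was at 31.6 CPM in the library labelled WT 1 and 69.5 in KO 2, and Nr1d2, its paralog, at 17.8 and 33.3. Per2 was at 15.5 and 24.9 CPM in the same libraries and Per3 at 21.6 and 15.6. The S1 libraries were close in Nr1d1 (135 and 145 CPM in WT 2 and KO 1), Nr1d2 (60.0 and 51.1) and Per3 (62.7 and 63.7) and apart in Per1 (77.1 and 40.7) and Per2 (37.2 and 23.5). Each of these is a difference of 1 library from another, without a replicate check, and was chosen after its values were seen.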
